A study of Mus musculus with 2 samples.

Results

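The regions described here were listed as bound by NELF-B, 1 of the subunits of negative elongation factor (NELF), in mouse embryonic fibroblasts. They lie far from any other region of the same list. Isolated regions were chosen by their spacing and height: autosomal regions with a summit height under 93 and a gap of at least 300 kb, edge to edge, to the preceding and the following region of the same chromosome, with the first and last region of each chromosome left out. The rule gave 502 isolated regions, which is 5.65% of the 8885 autosomal regions and part of a list of 9095. They are set beside 1580 close-packed comparison regions, which also lay on autosomes and had a height under 93 but had both gaps under 50 kb. The other 6803 autosomal regions belong to neither class.

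NELF joins RNA polymerase II just after transcription starts and holds it in a paused state close to the promoter. Its release, driven by the kinase P-TEFb, lets the polymerase elongate, and genes that respond quickly to growth or stress signals are well known for such pausing. In the mouse genome, genes are crowded in some stretches and thinly spread over others, which are called gene deserts where they hold hardly any.

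Chromatin immunoprecipitation and sequencing (ChIP-seq) was used to find the places that NELF-B occupies. The fibroblasts, primary connective tissue cells, came from a Nelf-b f/- embryo on a background that mixes 129/SvJ, C57BL/6 and FVB, and so carried the floxed allele beside a null one in both libraries. They were growing asynchronously in medium with 10% serum, and no treatment or other genotype was compared. The series holds 1 NELF-B library, made with a purified polyclonal antibody, and 1 input library, which contributed no values here. With 1 library there is no replicate error and no test. Intervals below are exact binomial or Poisson 95% intervals over regions, which cover counting error only and treat regions as independent.

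A region is given by its edges, its summit and a height. The height is a whole number beside the summit in the authors' own unit, sequencing depth is unknown, and heights were compared only within the list. Positions are those of the file, and the build was not given in the sources used here. No gene was therefore assigned to a region. The file holds no measure of chromatin, so "isolated" refers to the spacing of the list alone.

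The spacing of the isolated regions was set by the rule and is given as a description. The gap to the nearer neighbour had a median of 462 kb, with quartiles of 361 and 689 kb, and ran up to 5155 kb. The gap to the farther neighbour had a median of 1123 kb and ran up to 12469 kb. In the comparison regions the median gap to the nearer neighbour was 11.8 kb. Both gaps reached 1000 kb in 53 isolated regions, 1 of the gaps did in 225, and neither did in 224. Most isolated regions thus had a very long empty stretch on at least 1 side.

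**Figure D1:**
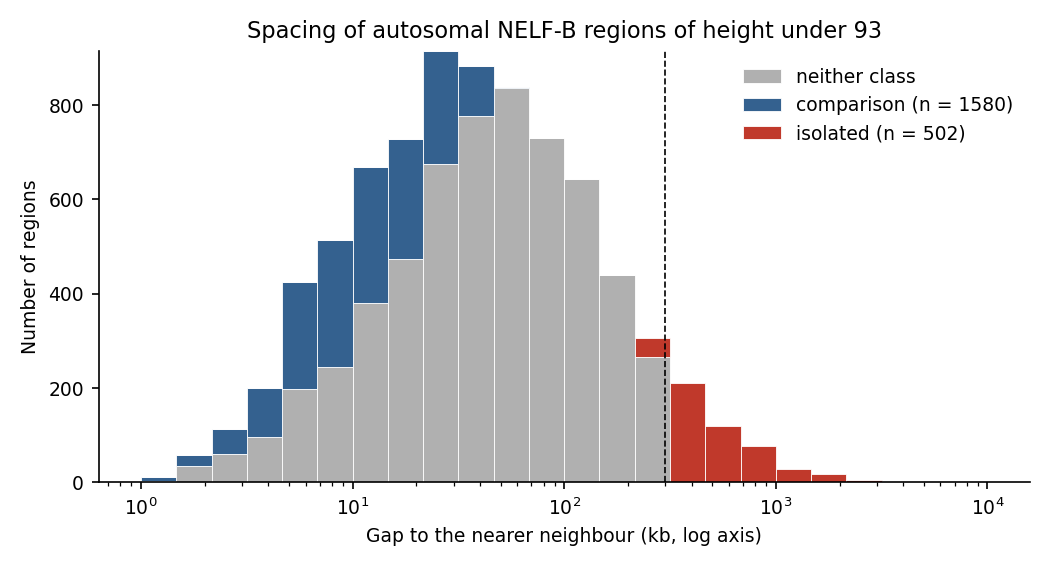
Number of autosomal NELF-B regions of height under 93 (vertical axis) by the gap to the nearer neighbour in kb (horizontal log axis, from 1 kb; the few shorter gaps are not drawn), with isolated regions in red, comparison regions in blue and regions of neither class in grey, and a dashed line at 300 kb. The 502 isolated regions form the right tail of a single broad distribution, not a separate group.

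The limit of 300 kb lay within that continuous distribution. The 3 regions just inside it had gaps of 300.4 kb, with heights of 42, 48 and 81 and widths of 1326, 1286 and 1023 bp. The 3 just outside had gaps of 298.8 to 299.9 kb, with heights of 25, 59 and 75 and widths of 1298, 1223 and 1343 bp. At the limit of height, 1 isolated region had a height of 92, and 2 regions with equally long gaps stood at 93 and were left out.

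The stretches around the isolated regions made up a large part of the autosomes. The list held 1652 autosomal gaps of 300 kb or more, which covered 76.6% of the 2393 Mb between the first and last region of each autosome. The isolated regions bordered 836 of these gaps, or 50.6%, with a summed length of 951 Mb. These stretches made up 39.7% of the autosomal span, while the isolated regions held 4.30% of the summed height of the autosomal list. Unmappable sequence was not taken out of these lengths.

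Isolation at 300 kb did not always mean an empty megabase. Within 1 Mb on either side of the summit, isolated regions had a median of 3 other regions (quartiles 1 and 6), comparison regions 23 (15 and 34) and all autosomal regions 13 (7 and 22). No other region lay within 1 Mb of 53 isolated regions, and 300 had 3 or more. A single isolated region had 23 others within 1 Mb, as many as the median comparison region. Within 5 Mb the medians were 25 for isolated and 69 for comparison regions. The sparseness therefore went beyond the 300 kb that the rule fixed, although the counts out to 1 and 5 Mb are partly set by it.

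Isolated regions were often neighbours of each other. Of the 502, 274 (54.6%) stood in 106 runs of 2 or more consecutive isolated regions, and 134 of these were in 36 runs of 3 or more. Consecutive regions share a gap, so a region beside an isolated region already met the gap limit on that side. These counts are therefore partly set by the rule. They were not compared with an expected share, and they only describe the list. The longest runs had 6 members. The first of them, on chromosome 2 from 62178993 to 68143646, spread its 6 regions over 5.96 Mb, with heights in order of 26, 35, 41, 22, 30 and 38. Their widths were 572, 691, 1272, 985, 1354 and 874 bp. The other, on chromosome 16 from 70314062 to 78577871, covered 8.26 Mb with heights of 41, 37, 29, 28, 20 and 28. In both runs every height stood at or below 41, close to or under the median of all isolated regions. Next came 5 runs of 5 members each. The first of these in chromosome order, on chromosome 10 from 43260201 to 52102894, mixed heights from 17 to 67.

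Within runs, the heights of next neighbours were unrelated. Across the 168 pairs of consecutive isolated regions, Spearman's rho was 0.01 for height and 0.12 for width. The pairs share 1 library and some regions are in 2 pairs, so these values only describe the list.

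Isolated regions were lower than the comparison regions. Their median height was 39 (95% interval 38 to 41), with quartiles of 29 and 51 and a range of 16 to 92. Comparison regions had a median of 44 (43 to 45), with quartiles of 33 and 60 and a range of 14 to 92. The ranges of the classes overlapped almost wholly, and all 7982 autosomal regions of height under 93 had a median of 42, between the classes. Of the isolated regions, 36.9% (32.6 to 41.2) stood above the median comparison region. A height under 32 was found in 33.1% (29 to 37.4) of isolated and 22.8% (20.8 to 25) of comparison regions. Over all autosomal regions of height under 93 these shares were 44.3% (43.2 to 45.4) and 26.7% (25.8 to 27.7). Height entered the rule as an upper limit, so these values are a description.

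The same direction was found when the upper limit was lifted. Of 537 autosomal regions with both gaps at 300 kb or more, 35 had a height of 93 or more, which is 6.52% (4.58 to 8.95). Among 1853 regions with both gaps under 50 kb, 273 did, which is 14.7% (13.1 to 16.4). Tall regions were thus less frequent among isolated than among close-packed regions, with intervals that did not overlap. Over all 8885 autosomal regions the share was 10.2% (9.54 to 10.8), between those of the classes. It was 13.1% (5.84 to 24.2) in the 61 regions with both gaps at 1000 kb or more. Among the tall regions the median height was 115 over the 35 and 127 over the 273.

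Isolated regions were also narrower. Width was not used by the rule, but it is read from the same library and rises with height. The median width was 1071 bp (1040 to 1108) in isolated regions, with quartiles of 909 and 1285 bp and a range of 328 to 2885 bp. In comparison regions it was 1149 bp (1131 to 1163), with quartiles of 963 and 1396 bp and a range of 533 to 3267 bp. The difference of 78 bp is small beside the spread within either class, whose SD was 322 bp in isolated and 372 bp in comparison regions. It appeared at both ends of the distribution. Regions under 800 bp made up 12.5% (9.78 to 15.8) of the isolated and 6.77% (5.58 to 8.13) of the comparison regions. Regions over 1500 bp made up 12.7% (9.96 to 16) and 19.4% (17.4 to 21.4). Over all autosomal regions of height under 93 these shares were 9.45% (8.81 to 10.1) and 15.7% (14.9 to 16.6), between the classes.

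**Figure D2:**
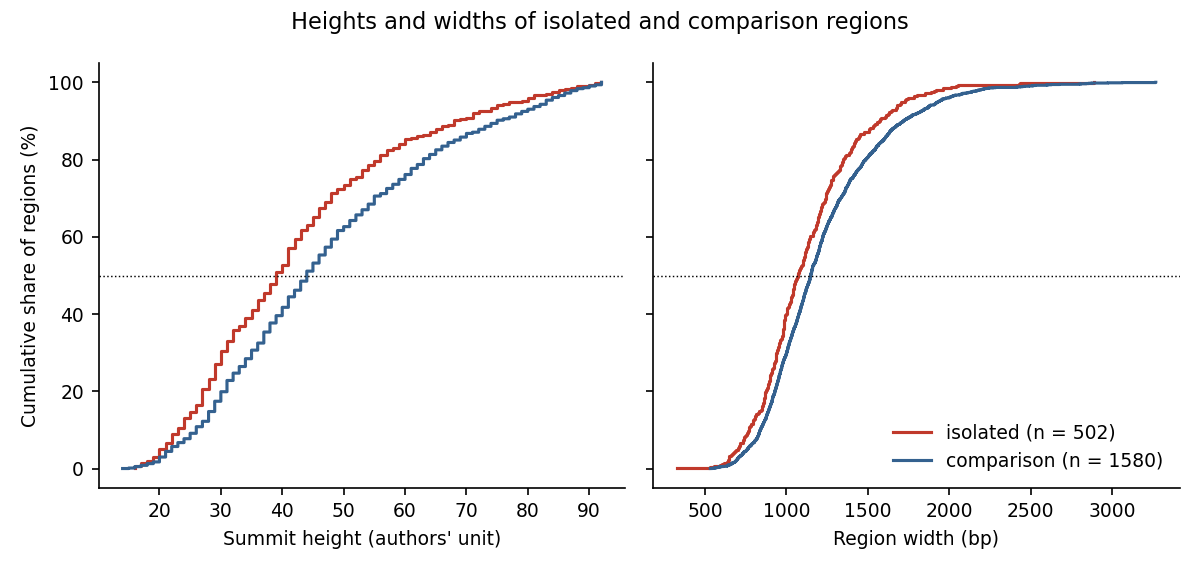
Cumulative share of regions (vertical axis, %) by summit height in the authors' unit (left) and by width in bp (right) for the 502 isolated regions in red and the 1580 comparison regions in blue, with a dotted line at the median. The red curves lie to the left over most of the range, with medians of 39 against 44 in height and 1071 against 1149 bp in width.

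Part of the width difference went with height. Height and width were correlated with a Spearman's rho of 0.34 in isolated and 0.36 in comparison regions, all of the same library. Low regions were the more common in the isolated class, where 27.1% had a height under 30 against 17.5% of the comparison class. Within each of 5 bins of height the isolated median was the smaller. It was 956 bp (910 to 1002) against 984 bp (949 to 1013) for heights under 30, and 1033 bp (963 to 1100) against 1080 bp (1034 to 1101) for heights of 30 to 39. The middle bin, 40 to 49, gave 1135 bp (1089 to 1209) against 1188 bp (1151 to 1224).

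In the upper bins the order was the same. Heights of 50 to 64 gave 1196 bp (1078 to 1329) in isolated and 1242 bp (1194 to 1285) in comparison regions, and heights of 65 to 92 gave 1207 bp (1111 to 1354) and 1278 bp (1227 to 1347). In all 5 bins the intervals overlapped, so no single bin separates the classes. With the comparison regions weighted to the heights of the isolated ones, their median was 1119 bp, and the difference shrank from 78 to 48 bp. Set against the median comparison region of its own height bin, 43.8% (39.4 to 48.3) of isolated regions were wider. Against the median of the whole comparison class, 39.8% (35.5 to 44.3) were wider, and 45.4% (44.3 to 46.5) of all autosomal regions of height under 93.

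**Figure D3:**
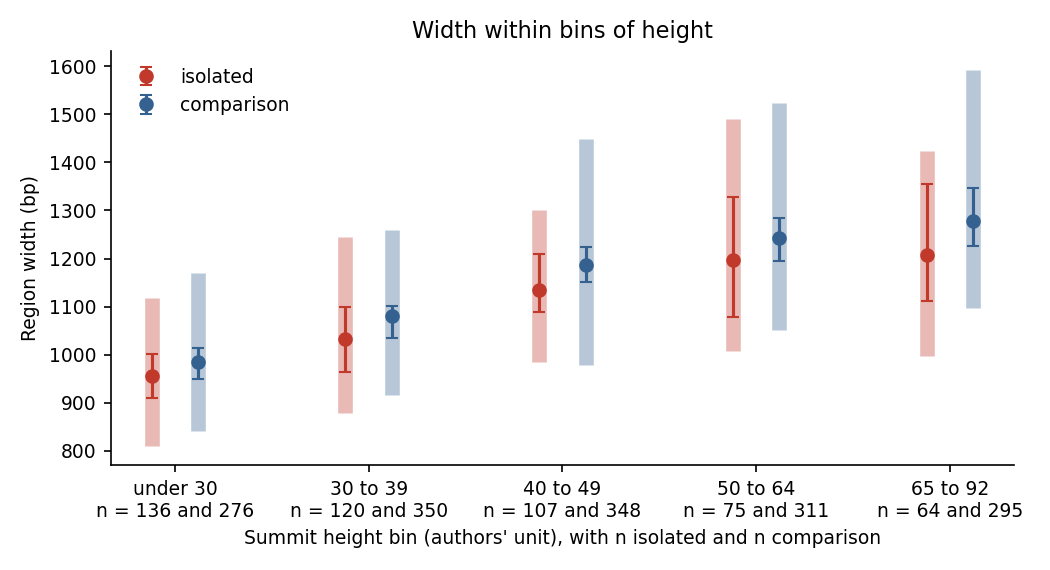
Region width in bp (vertical axis, starting above 0) in 5 bins of summit height for isolated regions (red) and comparison regions (blue); points are medians, thin bars exact binomial 95% intervals of the median and pale bars the quartiles. The isolated median is 28.5 to 71 bp lower in each bin, with overlapping intervals.

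The direction was shared by most chromosomes. The isolated median width was below that of the comparison regions on 16 of the 19 autosomes, and above it by 1 to 14.5 bp on chromosomes 1, 2 and 4. The median height was lower on 15 autosomes, and higher on chromosomes 3, 8, 13 and 14. Chromosome 18 showed the greatest gap in both, with a median height of 39 against 54 and a median width of 939 against 1172 bp, but it held only 15 isolated and 23 comparison regions. On chromosome 10, with 41 isolated regions, the median heights were 31 and 44.

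Summits lay near the middle of isolated regions, as they did in the comparison class. The median summit stood at 49.7% of the width (47.8 to 51.2) in isolated regions and at 48.6% (47.8 to 49.4) in comparison regions, counted from the lower coordinate. A summit outside the middle 60% of the width was found in 11 isolated regions, or 2.19% (1.10 to 3.89), and in 32 comparison regions, or 2.03% (1.39 to 2.85). Over all autosomal regions the share was 1.73% (1.47 to 2.03). The shorter arm, from the summit to the nearer edge, had a median of 426 bp (414 to 439) against 453 bp (447 to 457). This arm is part of the width and was not matched for height, so it adds no result separate from the width. No shift of the summit to a side could be measured here.

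From gaps of 10 to 50 kb up to 1000 kb, median height and width were lower at wider spacing. Among autosomal regions of all heights, the median height was 46 (45 to 48) where the nearer neighbour was under 10 kb away, and 46 (45 to 47) at 10 to 50 kb. It was 43 (42 to 45) at 50 to 100 kb, 41 (40 to 43) at 100 to 300 kb and 40.5 (38 to 42) at 300 to 1000 kb. The median width was 1146 bp (1129 to 1165) under 10 kb and slightly more, 1158 bp (1144 to 1173), at 10 to 50 kb. It was 1140 bp (1120 to 1156) at 50 to 100 kb, 1107 bp (1090 to 1131) at 100 to 300 kb and 1082 bp (1046 to 1112) at 300 to 1000 kb. The class of 1000 kb or more, with 61 regions, had medians of 42 (39 to 53) and 1144 bp (988 to 1187). Among regions of all heights, those with gaps of 300 to 1000 kb thus stood at the low end of a gradual change. Most of the difference in height lay below the limit of 300 kb. Held to heights under 93, the median height was 39 both at 100 to 300 kb (38 to 41) and at 300 to 1000 kb (37 to 41). The median widths were 1093 bp (1079 to 1108) and 1069 bp (1040 to 1104), with overlapping intervals. No trend test was made.

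The share of tall regions, those of height 93 or more, was lower at wider spacing too, except in the most isolated class. It was 13.7% (12 to 15.5) under 10 kb, 11.1% (10.1 to 12.1) at 10 to 50 kb, 8.39% (7.05 to 9.89) at 50 to 100 kb, 7.41% (6.12 to 8.88) at 100 to 300 kb and 5.67% (3.77 to 8.15) at 300 to 1000 kb. At 1000 kb or more it was 13.1% (5.84 to 24.2), from 8 tall regions of 61. That interval is wide. It overlaps the interval of each of the other classes, and the difference was not tested. Of the 8, 7 had heights of 98 to 146. The tallest, at 253, was also the widest of the whole list at 6113 bp, with its summit at 7.46% of the width.

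**Figure D4:**
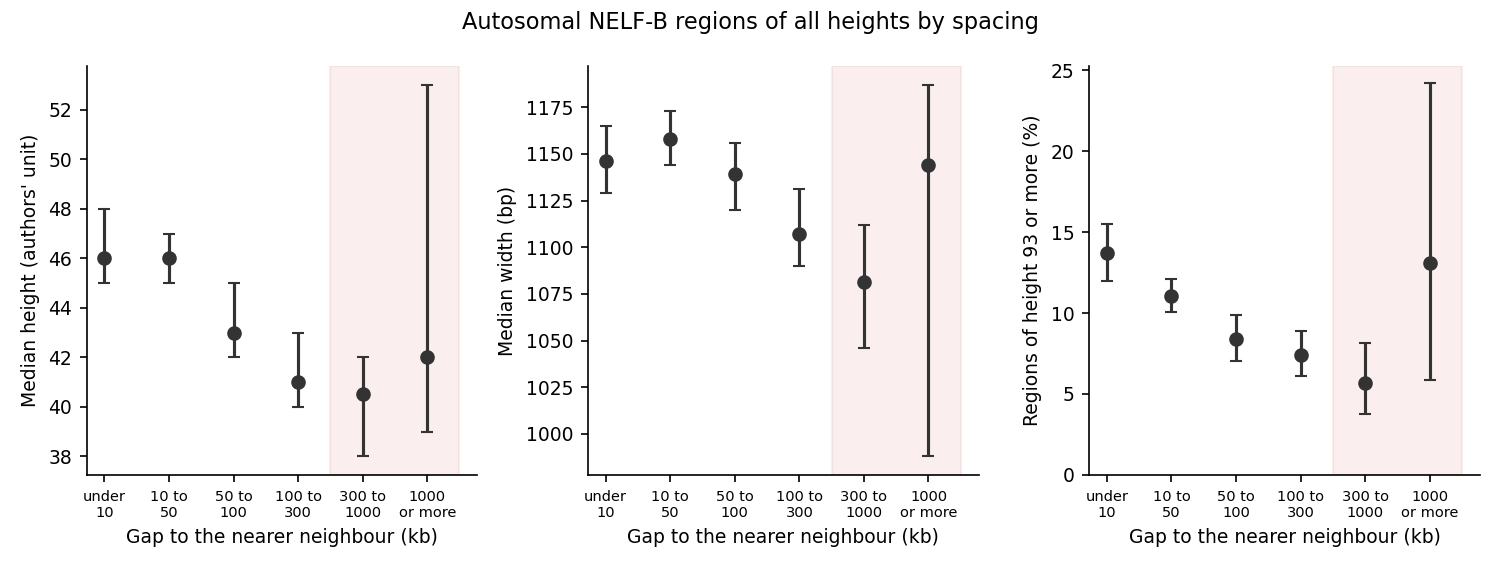
Median summit height in the authors' unit (left), median width in bp (middle) and share of regions of height 93 or more in % (right, from 0) for autosomal regions of all heights in 6 classes of the gap to the nearer neighbour; bars are exact binomial 95% intervals, the first 2 vertical axes start above 0, and shading marks gaps of 300 kb or more. Height goes from 46 to 40.5 between gaps under 10 kb and gaps of 300 to 1000 kb, and the class of 1000 kb or more, with 61 regions, has wide intervals.

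Among the isolated regions themselves, longer gaps did not go with lower or narrower regions. Spearman's rho between the gap to the nearer neighbour and the height was 0.00 over the 502 regions, and with the width it was also 0.00. The 283 regions with a nearer neighbour at 300 to 500 kb had a median height of 41 (38 to 43) and width of 1089 bp (1046 to 1125). The 166 at 500 to 1000 kb had 37 (34 to 40) and 1032 bp (999 to 1100), and the 53 beyond had 40 (36 to 48) and 1120 bp (971 to 1187). These intervals overlap one another.

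The 10 most isolated regions lay on 7 chromosomes. Farthest from any other was the region on chromosome 14 from 94289410 to 94290350, with gaps of 6473 and 5155 kb and no other region within 5 Mb of its summit. Its height of 84 was high for an isolated region, and its width of 941 bp was below their median. The region from 31006469 to 31007629 of chromosome 1 had a height of 24 and gaps of 6321 and 2718 kb. On chromosome 6, the region from 21898993 to 21900162, with a height of 36, stood 3100 and 2577 kb from neighbours of heights 125 and 121.

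Others of these 10 came in consecutive pairs. Chromosome 16 held 2, from 70314062 to 70315225 and from 72662835 to 72663811, with heights of 41 and 37, which open the run of 6 named above. Chromosome 7 held 2, from 57033340 to 57034248 and from 59117182 to 59118325, with heights of 21 and 48. The first of this pair still had 50 other regions within 5 Mb, the second 9. Single regions lay on chromosome 5 from 48763152 to 48764040 (height 39), on chromosome 10 from 105278050 to 105278952 (height 30) and on chromosome 1 from 13649746 to 13651087 (height 33). Over all 10 the heights ran from 21 to 84 with a median of 36.5, and the widths from 889 to 1342 bp. None of the 10 was among the 5 lowest or the 5 narrowest isolated regions. Lists this short, out of 502 regions, would seldom overlap in any case, so this only describes the lists.

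The tallest isolated regions lay just under the height limit. They were on chromosome 6 from 25758645 to 25759939 (height 92), chromosome 3 from 157196754 to 157198169 (91), chromosome 4 from 53024133 to 53025367 (91), chromosome 8 from 120325257 to 120326439 (91) and chromosome 6 from 43615384 to 43616858 (90). All 5 were wider than the median isolated region, at 1183 to 1475 bp. The one on chromosome 3 had its summit at 14.6% of the width, among the most off-centre of the class.

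At the lower end, 4 regions had a height of 16. They were on chromosome 1 from 67085198 to 67085846, on chromosome 2 from 162108337 to 162109070, on chromosome 10 from 116176868 to 116177733 and on chromosome 13 from 60839080 to 60840058. Their widths were 649 to 979 bp, all below the median of the isolated regions. A height of 17 was shared by 3 more, of which the first in chromosome order, on chromosome 10 from 44786367 to 44787268, belongs to the run of 5 on that chromosome. These 3 were 700 to 1276 bp wide, and the widest of them was above that median.

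The widest isolated region, of height 81, covered 2885 bp on chromosome 17, from 48547358 to 48550242. Next came chromosome 8 from 46020012 to 46022443 (2432 bp), chromosome 5 from 120119635 to 120122060 (2426 bp), chromosome 14 from 66914906 to 66917157 (2252 bp) and chromosome 6 from 133984468 to 133986517 (2050 bp). Their heights were 43, 86, 76 and 34, so 2 of the 5 widest were of ordinary height.

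The narrowest, of height 24, was 328 bp long and lay on chromosome 2, from 177182840 to 177183167. Its gaps were 2884 kb before and 310 kb after it. The other 4 narrow regions measured 529 bp (chromosome 4 from 153901600 to 153902128), 558 bp (chromosome 10 from 99478167 to 99478724), 572 bp (chromosome 2 from 62178993 to 62179564) and 594 bp (chromosome 14 from 14953159 to 14953752). The last had a height of 57, above the upper quartile of the isolated regions, while the others stood at 23 to 29. Narrow isolated regions were thus mostly, but not always, low.

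Beside their neighbours, isolated regions were about as low as comparison regions were beside theirs. The height of an isolated region minus the mean of its 2 neighbours had a median of -5, and 61.8% were below that mean. In comparison regions the median was -6.5 and the share 61.3%. Both classes were limited to heights under 93 while their neighbours were not, which lowers both values. A neighbour of height 93 or more stood beside 16.3% (13.2 to 19.9) of isolated and 22.2% (20.2 to 24.3) of comparison regions. Over all autosomal regions of height under 93 the share was 17.6% (16.7 to 18.4), inside the interval of the isolated regions. A further 660 regions bordered an isolated region without being isolated by the rule. Of these, 78 (11.8%) had a height of 93 or more, beside 10.2% of all autosomal regions. Regions left out of the isolated class only by their height are among them. All 660 together had medians of 44 in height and 1131 bp in width, beside 44 and 1139 bp over all autosomal regions. The 582 of height under 93 had a median height of 40 and a median width of 1107 bp. The regions at the far side of the gaps, held to the same height limit, were thus close in height to the isolated regions themselves.

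Each autosome held isolated regions, from 15 on chromosome 18 to 44 on chromosome 2. Per Mb, the density was highest on chromosomes 13 and 10, at 0.324 (95% Poisson interval 0.231 to 0.443) and 0.315 (0.226 to 0.428), and lowest on chromosomes 7 and 11, at 0.138 (0.085 to 0.210) and 0.140 (0.081 to 0.224). As a share of all regions of the chromosome, they were 9.90% (7.20 to 13.2) on chromosome 10, 9.87% (7.12 to 13.2) on 13 and 9.69% (6.53 to 13.7) on 12. On chromosome 11 the share was 2.29% (1.34 to 3.64), the lowest. Chromosome 11 is among the most gene-rich of the mouse autosomes, and here it also had the most regions per Mb.

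The share of isolated regions was lower on chromosomes with more genes per Mb. Across the 19 autosomes, Spearman's rho between the share and the number of protein-coding genes per Mb was -0.78, with a Pearson's r of -0.77. They were -0.70 and -0.68 when chromosomes 7 and 11, whose gene density is farthest from the median, were left out. With the number of regions per Mb the values were -0.81 and -0.75, and spacing is tied to that number by construction. The number of isolated regions per Mb showed a weaker relation to genes per Mb, with rho of -0.36, which was -0.11 without chromosomes 7 and 11. The chromosomes share 1 library, so these are descriptions with no p-value. Gene numbers come from assembly GRCm38.p6 and lengths from the end of the last region in the file.

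Along the chromosomes, isolated regions were spread more evenly than close-packed ones. When the span from the first to the last region was divided into 5 equal parts in coordinate order, the isolated regions held shares of 17.5%, 23.1%, 21.7%, 20.3% and 17.3%. The last part held 30.1% (27.9 to 32.5) of comparison and 17.3% (14.1 to 20.9) of isolated regions. It held 26.8% (25.9 to 27.7) of all autosomal regions, so the whole list was densest there. Mouse chromosomes have the centromere at the end where coordinates begin, so the last part is the one farthest from it. The share in the last part was lower for isolated than for comparison regions on 14 of the 19 autosomes and higher on 5.

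The second part showed the opposite order. It held 23.1% (19.5 to 27.0) of isolated and 14.1% (12.4 to 15.9) of comparison regions, with 16.2% (15.5 to 17) of all autosomal regions. In the first, the third and the fourth part the intervals of the classes overlapped. Gaps entered the rule, so where the list is thin, isolated regions are found by construction, and these shares describe where that was.

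**Figure D5:**
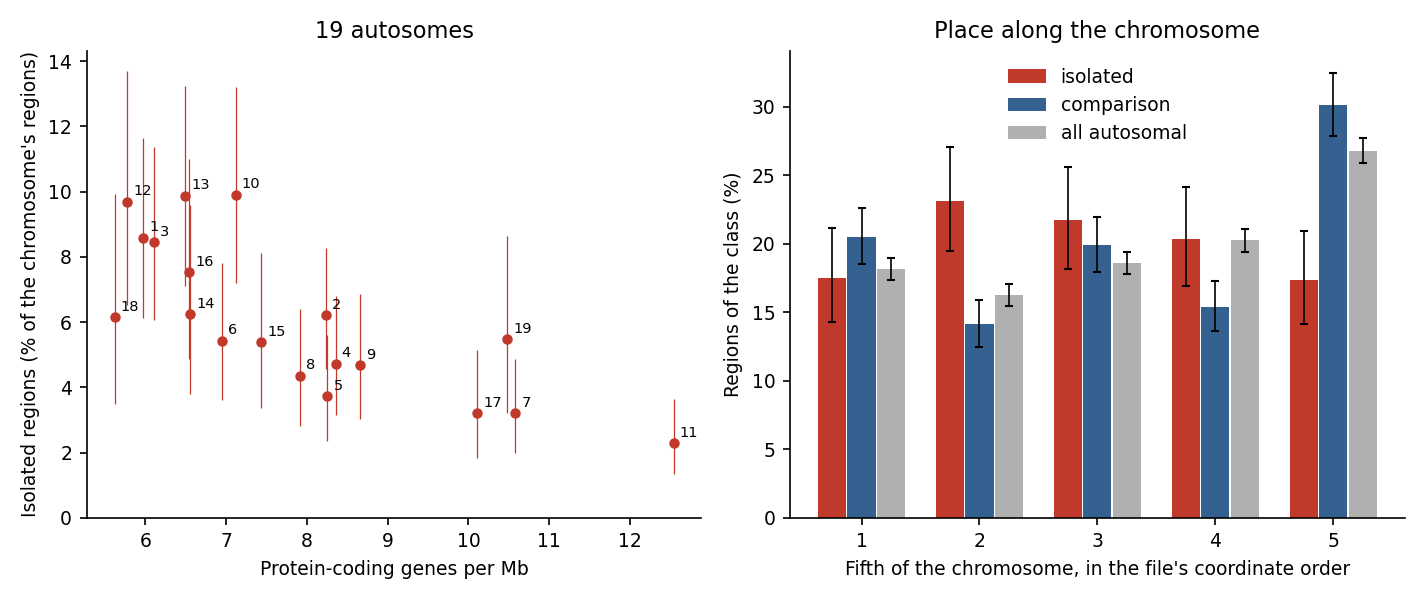
Left, isolated regions as % of the regions of each of the 19 autosomes (numbered points, bars are exact 95% intervals) by protein-coding genes per Mb. Right, % of isolated (red), comparison (blue) and all autosomal regions (grey) in each of 5 equal parts of the chromosome, with exact 95% intervals. The share of isolated regions runs from 9.90% on chromosome 10 to 2.29% on chromosome 11. In the last part isolated regions (17.3%) lie below comparison regions (30.1%) and all autosomal regions (26.8%).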

How the data were processed

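The deposited list of 1 NELF-B library holds 3 tracks of 9095 entries, per the file headers, which name the factor Cobra1, an older name of NELF-B: summits with a score, here called height, in the authors' own unit, then intervals, then active regions identical to the intervals. MACS, a peak caller, is named without a version, per the submitters' processing notes. The aligner, threshold, genome build and use of the input were not given in the sources used here. Tracks were joined by order, each summit lay inside its interval, and starts were raised by 1. In all, 9005 summits were multiples of 16 bp. Cells were fixed for 15 min in formaldehyde at 1%, and library fragments were cut from a gel at 175 to 225 bp before 18 cycles of PCR, per the labels' protocols.

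The gene table (GRCm38.p6) has other coordinates than the list: 88 regions, 2 of them isolated, began beyond the final gene of their chromosome. Only gene numbers per chromosome were used: 19209 protein-coding genes on autosomes, with 1456 olfactory and vomeronasal receptor genes left out by symbol. Comparisons of sequence and genes were not made.

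Medians have exact binomial intervals from order statistics, shares exact Clopper-Pearson intervals and densities exact Poisson intervals, at 95%. Depth is unknown. The class rule and the intervals were tested on simulated data. Named regions were the 10 with the longest gap to the nearer neighbour, the 5 tallest, lowest, widest and narrowest, the 3 on either side of the gap limit and the 3 longest runs, with ties taken in order of chromosome and start. The members, classes and lists were chosen with earlier results of these data known. Shares along the chromosome, counts within 1 and 5 Mb, heights of neighbours, the limits of 800 and 1500 bp and the split of isolated regions by gap were added later. Alternatives changed the gap limit, its measure, the height limit, the list, the chromosomes, the comparison class and the definition of an off-centre summit. Statistics were computed with SciPy 1.17.1 and NumPy 2.4.6 in Python 3.11.15, tables were handled with pandas 2.3.3 and figures drawn with matplotlib 3.10.9.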

Additional observations from a re-analysis of the deposited data

How the results depend on the processing

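Of 84 alternatives over 8 results, 13 moved the value out of its interval or the count by over 1.5 times and 71 did not. Some of the 71 could not move, because the gap limits of 200, 500 and 1000 kb leave the comparison class unchanged. The share of isolated regions wider than the median comparison region stayed under 50% in each of its alternatives. The number of isolated regions was 829 with gaps of 200 kb, 219 with 500 kb and 53 with 1000 kb, by construction. With gaps of 1000 kb their median width was 1120 bp (971 to 1187). At that setting 45.3% (31.6 to 59.6) were wider than the median comparison region, an interval that includes 50%. With gaps of 500 kb, 31.5% were taller than the median comparison region. With regions under height 32 removed first, the isolated medians were 45 in height and 1119 bp in width, against 1203 bp in the comparison class. That class had 1185 bp with no height limit and 1119 bp when weighted to the heights of the isolated regions, an alternative added after seeing the data, as was the one by height bin. Off-centre summits were 4.78% of isolated and 6.58% of comparison regions outside the middle 50%, by construction. Otherwise the cause was not tested. Leaving out each autosome moved none of the 8 results. No replicate could be left out, and no paired analysis was possible because there is 1 library per group. Unknown depth limits every height.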
